A study of Mus musculus with 4 samples.

Results

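The MHC class II presentation genes followed here were 7 of the 18220 genes in the deposited single-cell tables, taken by symbol from a family chosen with earlier results of these data known: H2-Aa, H2-Ab1, H2-Eb1, H2-DMa, H2-DMb1, Cd74 and Ciita. All 7 were listed both for malignant and for non-malignant cells, as were 16121 genes in all. The cells came from hind limb sarcomas grown as allografts, with the genotype KrasLSL-G12D/+;Trp53flox/flox and the background strain 129/SvJae in all 4 mice. In 2 mice the injections held vehicle, which was PBS. In 2 mice they held 2 mg/kg digoxin, an inhibitor of the sodium-potassium pump, made up in DMSO and diluted in PBS. The drug and its DMSO thus cannot be told apart in this design. Injections were intraperitoneal and 24 h apart, and each tumor was taken after the fourth. The question put to these genes was where in the tumor they were expressed and whether their RNA differed between the digoxin and the vehicle mice. The labels do not say how the alleles were recombined, whether the mice shared a litter, or whether the tumors grew from 1 cell line. With 2 mice per group, the p-values measure only the spread between these samples.

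MHC class II molecules are pairs of an alpha and a beta chain that carry peptides from engulfed proteins to the surface of dendritic cells, B cells and macrophages, where CD4+ T cells read them. H2-Aa and H2-Ab1 encode the alpha and beta chains of I-A, and H2-Eb1 encodes the beta chain of I-E. Cd74, the invariant chain, holds the peptide groove closed until the complex reaches the endosome. There the peptide editor made of H2-DMa and H2-DMb1 exchanges the last fragment of the invariant chain for antigen. Ciita is the transactivator that assembles on the promoters of this family. In tumors, macrophages are often the most abundant cells that present peptides on MHC class II.

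Of the 7 genes, 5 lie on chromosome 17 in GRCm38 (mm10), within the major histocompatibility complex. H2-DMa spans 34119541 to 34139101, H2-DMb1 34153072 to 34160230 and H2-Ab1 34257689 to 34269419. H2-Aa lies at 34282744 to 34287823 on the minus strand and H2-Eb1 at 34305867 to 34316674. Ciita spans 10480059 to 10528418 on chromosome 16, and Cd74 lies on a different chromosome from the rest. Gm20513 overlaps H2-Eb1, Brd2 overlaps H2-DMa and Dexi overlaps Ciita, each on the opposite strand and each with a row of its own in the tables. Whether the counting used strand is not given in the sources used here, so reads of these pairs may have been mixed. H2-DMb1 and its neighbour H2-DMb2 are near-identical copies, so the split of unique molecular identifiers (UMIs, 1 per captured transcript) between them is uncertain.

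RefSeq promoters (GRCm38.p6) were at hand for 4 of the 7 members. The 250 bases before the start site are shown for 3 of them, because Ciita acts through the X and Y boxes of such promoters. Capitals mark AGCAAC, a core of the X box, and GATTGG, the Y box, on either strand.
H2-Aa (chr17:34287824-34288073, minus strand): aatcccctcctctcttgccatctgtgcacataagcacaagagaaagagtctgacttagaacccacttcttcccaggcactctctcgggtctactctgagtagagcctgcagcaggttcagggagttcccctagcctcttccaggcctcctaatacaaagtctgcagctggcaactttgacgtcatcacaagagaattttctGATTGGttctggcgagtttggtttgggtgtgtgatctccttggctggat
H2-Eb1 (chr17:34305617-34305866, plus strand): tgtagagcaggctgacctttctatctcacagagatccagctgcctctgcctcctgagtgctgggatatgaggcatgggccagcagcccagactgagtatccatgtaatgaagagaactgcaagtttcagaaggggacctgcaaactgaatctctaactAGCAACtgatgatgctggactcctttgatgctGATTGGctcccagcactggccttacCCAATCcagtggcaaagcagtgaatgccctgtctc
H2-DMb1 (chr17:34152941-34153190, plus strand): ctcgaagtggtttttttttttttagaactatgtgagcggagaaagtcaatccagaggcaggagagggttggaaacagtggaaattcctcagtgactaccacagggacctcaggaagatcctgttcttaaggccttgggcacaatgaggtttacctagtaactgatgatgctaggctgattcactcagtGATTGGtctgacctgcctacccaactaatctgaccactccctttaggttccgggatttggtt
GATTGG began 49 bases before the start of H2-Aa, 60 before that of H2-Eb1 and 62 before that of H2-DMb1. Of these sequences, that of H2-Eb1 also held AGCAAC, which began 92 bases before its start and 32 before its GATTGG. Only exact matches were marked. Similar strings, such as ggcaac in H2-Aa and agtaac in H2-DMb1, both upstream of GATTGG, were not sought. The lack of AGCAAC thus does not show that an X box is absent. H2-DMa has 2 annotated starts: at the upstream one neither string was found, and at the other GATTGG began 199 bases before the start. Among 32851 promoters cut to the same length, 14.6% held GATTGG and 12.2% held AGCAAC on either strand. AGCAAC followed 10 to 40 bases later by GATTGG on the strand of the gene stood in 29 of them.

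The tables held 31611 cells, from 7233 to 9283 per mouse, and 315587596 to 403198820 UMIs per mouse. Between 14 and 25 cell barcodes were shared by any pair of mice, and none by the malignant and non-malignant cells of the same mouse. Trp53, floxed in this model, had a mean of 6.56 to 7.71 CPM (a gene's UMIs over all UMIs of its cell, on the usual CPM scale, then the mean over cells) in malignant cells and 63.8 to 75.5 CPM in non-malignant cells. The second vehicle mouse stood apart in its non-malignant cells: Xist was at 6.09 CPM there against 722, 817 and 788 CPM in vehicle mouse 1, digoxin mouse 1 and digoxin mouse 2. Its Ddx3y was at 86.0 CPM against at most 2.14 CPM. Both genes are sex-linked: vehicle mouse 2 had the pattern of male cells and the other mice that of female cells. Sex was thus unbalanced between the groups, and its part in the differences was not tested. Where leaving out vehicle mouse 2 moved the log2 difference of Cd74 in a tested population by over 1.5 times, the value without it is given as well.

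Macrophages held nearly all MHC class II RNA of the non-malignant cells. Of the UMIs of the 7 genes, they held 93.9% and 94.2% with vehicle and 93.6% and 94.5% with digoxin, while they made up 79.7% to 84.2% of the cells. The groups differed in this share by less than the spread of the mice (two-sided exact permutation test, p = 1, smallest possible p 0.333, n = 2 per group). T cells followed with 2.64% to 2.85%, and the clusters deposited as Dendritic, Microglia and B cell each held under 1%. Among the macrophages, the sub-cluster deposited as M1 carried the highest level of every member. Since the clusters were formed on the same genes, the levels are a description and the order of the populations is not tested.

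Cd74 in M1 macrophages had 12123 and 17194 CPM in vehicle mice 1 and 2, and 11416 and 8529 CPM in digoxin mice 1 and 2. The cells named Dendritic had 11381, 10459, 6082 and 8326 CPM in the same order, and their range overlapped that of M1. M2 macrophages had 4546 to 6029 CPM and the Highly proliferative M2 macrophages 4374 to 5747 CPM, so each of the 4 M1 values lay above each of these. B cells had 5870 to 11072 CPM on 4 to 18 cells per mouse, neutrophils 4848 to 10234 CPM, Microglia 5146 to 5773 CPM and T cells 2478 to 4529 CPM. The ranges of B cells and neutrophils overlapped that of M1, and those of Microglia and T cells lay below it. Below all of these stood osteoclasts (467 to 1839 CPM), fibroblasts (28.7 to 523 CPM), the cluster deposited as Epithelial (211 to 503 CPM), NK cells (144 to 349 CPM) and malignant cells (95.6 to 157 CPM), and the neighbours in that order overlapped. In that cluster endothelial markers (Cdh5, Kdr and Pecam1) summed to 2090 to 2228 CPM and epithelial markers (Cdh1, Epcam, Krt8 and Krt18) to 7.17 to 19.3 CPM, so its markers go against its name, which is kept here only as a label. The alpha chain gene H2-Aa, at 2741 to 6130 CPM in M1, was at 31.7 to 52.8 CPM in malignant cells. Ciita had its highest mean in M1 as well, at 55.0 to 192 CPM, and of the 13 tested populations its lowest in malignant cells, at 0.604 to 1.52 CPM. In such means, fewer cells with a transcript and fewer transcripts per cell cannot be told apart.

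**Figure D1:**
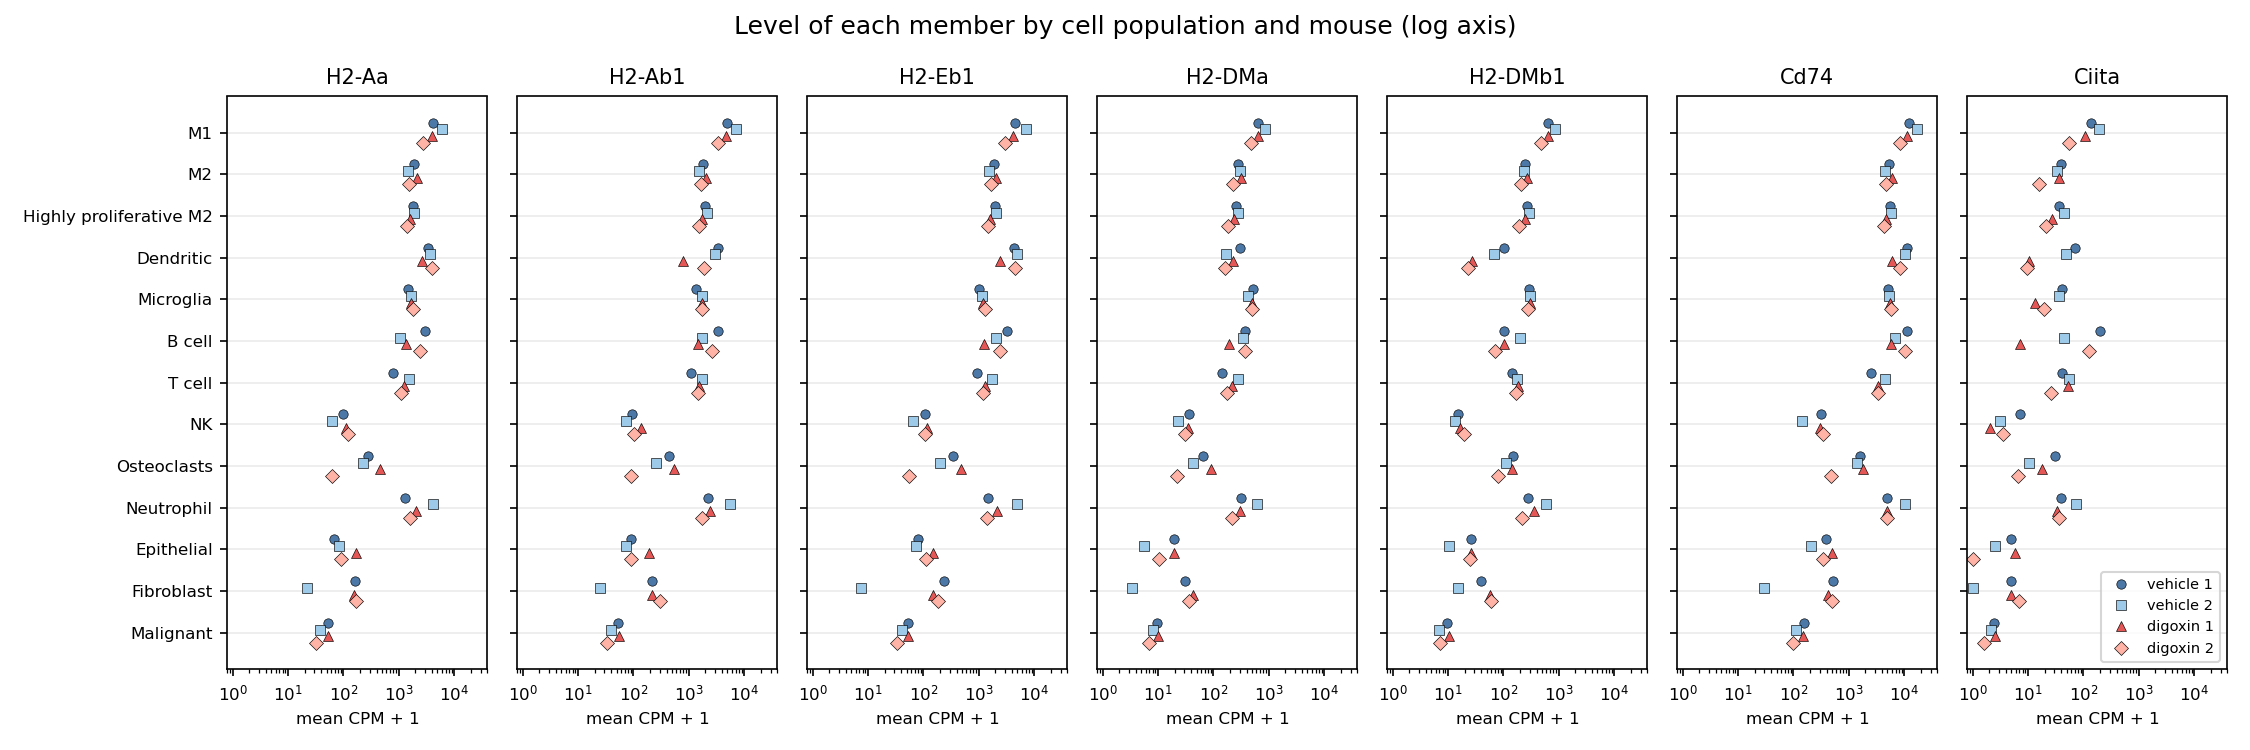
Mean CPM + 1 (log axis) of each of the 7 members in 13 populations, 1 point per mouse. M1 macrophages have the highest mean over the 4 mice in every panel, with Cd74 at 8529 to 17194 CPM, and malignant cells the lowest, with Cd74 at 95.6 to 157 CPM.

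Relative to Cd74, H2-Aa varied least among the macrophage sub-clusters, by highest over lowest value, and Ciita varied most. A ratio of UMIs between genes depends on how well each is captured, so each ratio is compared only with itself in other populations or mice. Per 100 Cd74 UMIs, M1, M2 and Highly proliferative M2 macrophages held 31.6 to 35.3 of H2-Aa and 4.41 to 5.64 of H2-DMb1. H2-Eb1 ranged from 33.1 to 41.3, H2-DMa from 4.27 to 6.85 and Ciita from 0.293 to 1.11 over the same sub-clusters and mice. H2-Ab1 was at 39.2 to 40.7 in M1 and at 33.0 to 33.9 in M2, ranges that did not overlap. Cells named Dendritic held 0.384 to 1.1 of H2-DMb1, below each of those values. Their H2-DMb2 stood at 67.5 to 177 CPM, above H2-DMb2 in M1 (21.1 to 61.8 CPM) and in M2 (2.19 to 5.86 CPM) in each mouse. In osteoclasts, H2-Aa was at 12.4 to 25.9 per 100 Cd74 and H2-DMb1 at 7.99 to 17.4, the former below and the latter above each macrophage value.

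Over 44 points, 11 populations in each of 4 mice, log2(mean CPM + 1) of the members followed each other. Pearson's r was 0.991 between H2-Aa and H2-Eb1, the highest of the 21 pairs, and 0.797 between H2-Eb1 and H2-DMb1, the lowest. The points share libraries and cell populations, so these values only describe the pattern. Among 6317 genes with a mean of at least 20 CPM, the 10 whose pattern was most like the mean of the members other than Ciita were Ctss (r = 0.951), Irf5, Rassf4, Ptafr, Plbd1, Ly86, Gm6377, Cybb, Ncf1 and Prkcd (r = 0.880). Ctss encodes cathepsin S, the protease that trims the invariant chain in macrophages and dendritic cells, and its level was 1922 CPM in M1 and 28.9 CPM in malignant cells (means of 4 mice).

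Macrophages of the same mouse differed widely in these genes. The summed level of the 7 members in the M1 cells of vehicle mouse 1 was 776 CPM at the 10th percentile, 26616 CPM at the median and 56926 CPM at the 90th. M1 medians were 45357 CPM in vehicle mouse 2, 22464 CPM in digoxin mouse 1 and 8806 CPM in digoxin mouse 2. Both digoxin medians lay below both vehicle medians, and the 90th percentiles lay closer together, at 56926, 69729, 57493 and 51658 CPM in the order vehicle 1, vehicle 2, digoxin 1, digoxin 2. Median UMIs per M1 cell were 12918 to 14702. The M2 medians were 4101, 1071, 4707 and 2043 CPM in that order, and they overlapped. Over all macrophages the medians were 9978, 3787, 9750 and 3564 CPM in that order, and these overlapped as well.

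**Figure D2:**
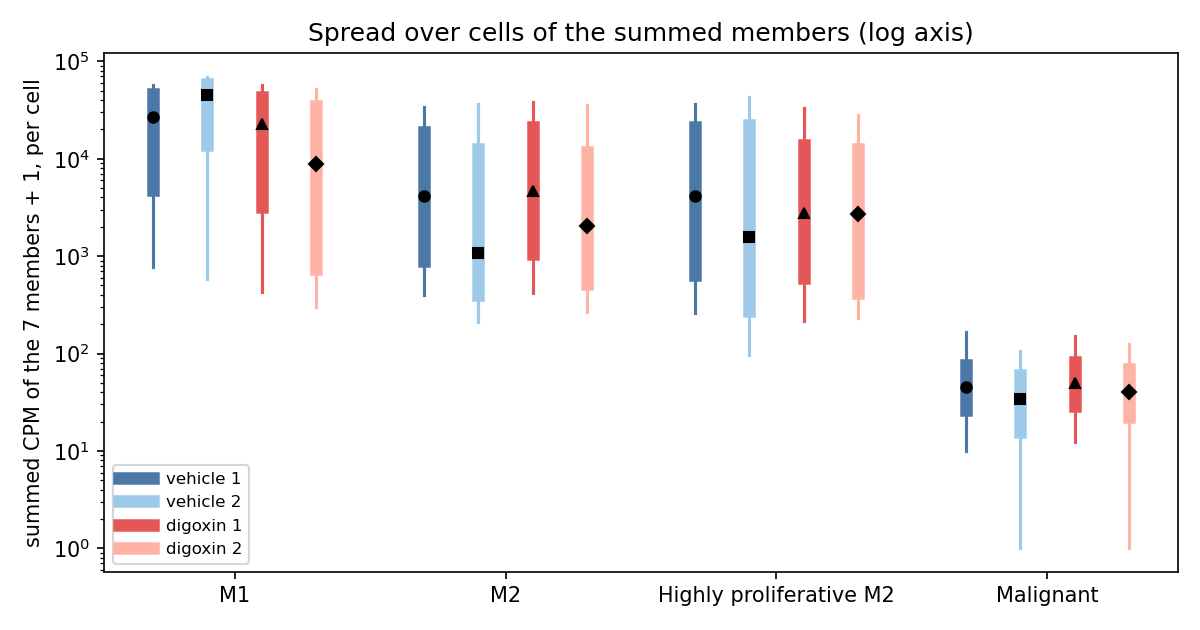
Summed CPM of the 7 members + 1 per cell (log axis); thin lines run from the 10th to the 90th percentile of cells, thick bars from the 25th to the 75th, and symbols mark medians, 1 column per mouse. The M1 medians are 26616 and 45357 CPM with vehicle and 22464 and 8806 CPM with digoxin, and the malignant medians are 32.9 to 48.3 CPM.

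Within each mouse, macrophages were ranked by that sum, and the 20% with the highest were compared with the 20% with the lowest, as a description. The M1 sub-cluster made up 63.7% to 80.1% of the highest and 10.2% to 38.3% of the lowest. Median UMIs per cell were 13152 to 15498 in the highest and 17135 to 19780 in the lowest. Lyve1 and Folr2, genes of resident tissue macrophages, averaged 472 to 630 CPM and 370 to 566 CPM in the lowest, against 2.02 to 18.8 CPM and 29.7 to 104 CPM in the highest. Itgax, the integrin CD11c, was 10.1 to 14.7 times as high in the highest as in the lowest, and the chemokine Cxcl9 14.3 to 40.5 times. Ccr2, the receptor of recruited monocytes, was 1.81 to 3.75 times as high. Mki67, a marker of dividing cells, was at 0.320 to 0.473 times the level of the lowest, and C1qa, a complement gene of macrophages, at 0.593 to 0.958 times.

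In M1 macrophages, 6 of the 7 members had each digoxin mouse below each vehicle mouse, and none was called at an adjusted p under 0.05. The same side was taken by 24% of 12182 genes in M1. H2-Ab1 had 4972 and 7136 CPM with vehicle and 4644 and 3381 CPM with digoxin. For H2-Eb1 the values were 4483 and 7133 CPM against 4096 and 2999 CPM. Ciita stood at 136 and 192 CPM against 107 and 55.0 CPM. In these 3 genes vehicle mouse 2 was highest and digoxin mouse 2 lowest, with the other 2 mice close together. The log2 difference, digoxin minus vehicle on log2(mean CPM + 1), was -0.59 for H2-Ab1 (SE 0.23), -0.69 for H2-Eb1 (SE 0.25), -0.55 for Cd74 (SE 0.23) and -1.07 for Ciita (SE 0.30). Adjusted p-values from limma over all genes were 0.507 for Ciita and 0.580 to 0.667 for the others, where the median log2 difference of all M1 genes was -0.02. H2-DMa, the exception, had 632 and 855 CPM against 641 and 469 CPM. At an unadjusted p under 0.05 there were 4 members and 942 genes in all. limma and edgeR each called 0 genes (0%) in M1, and DESeq2 called 42 (0.345%), none of them a member. Without vehicle mouse 2, Cd74 differed by -0.30 and Ciita by -0.82, and without digoxin mouse 1 limma called Ciita (-1.54, adjusted p = 0.000723) and 0.591% of genes. Without digoxin mouse 2, Cd74 differed by -0.34 and Ciita by -0.59, with no member called. Summed over 8 macrophage markers, M1 cells had 18252, 19438, 16579 and 19840 CPM in the order vehicle 1, vehicle 2, digoxin 1, digoxin 2, and their part in the differences was not tested. With vehicle, M1 held 1095 of 2418 macrophages in mouse 1 and 712 of 2456 in mouse 2. With digoxin it held 1307 of 2748 and 1166 of 2741. In all macrophages Cd74 was at 8473 and 8327 CPM with vehicle and 8446 and 6265 CPM with digoxin, which overlap. The M1 label was formed on the same genes, and the part of the M1 share in the M1 differences was not tested.

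The Highly proliferative M2 macrophages were the only tested population in which all 7 members had each digoxin mouse below each vehicle mouse, where 12.6% of 11459 genes lay on that side. Cd74 was at 5500 and 5747 CPM with vehicle and at 4718 and 4374 CPM with digoxin. H2-Eb1 was at 1936 and 2073 CPM against 1571 and 1487 CPM. The groups did not overlap for either gene, and the replicates of a group differed by less than the groups did. Per cell, the medians of the summed 7 members did overlap, at 4138 and 1557 CPM with vehicle and 2786 and 2728 CPM with digoxin. Their 75th percentiles did not, at 21085 and 21989 CPM against 13704 and 12694 CPM. The log2 differences were -0.39 for H2-Eb1 (SE 0.09), -0.31 for Cd74 (SE 0.09), -0.30 for H2-Aa (SE 0.10), -0.35 each for H2-Ab1, H2-DMa and H2-DMb1, and -0.73 for Ciita (SE 0.17). Each of the 7 had an unadjusted p under 0.05, as did 451 genes in all, and limma gave each an adjusted p of 1.00 and called 0% of genes. edgeR called no gene either, while DESeq2 called 16 (0.14%), 2 of them members: H2-Eb1 (log2 difference -0.45, adjusted p = 0.0152) and Ciita (-0.91, adjusted p = 0.0350). Summed macrophage markers in these cells were 13305, 17964, 14358 and 15794 CPM in the order vehicle 1, vehicle 2, digoxin 1, digoxin 2, so the groups overlapped. Without vehicle mouse 2 the difference was -0.28 for Cd74 and -0.59 for Ciita, and without vehicle mouse 1 limma called Ciita (-0.87, adjusted p = 0.0116) and H2-Eb1 (-0.44, adjusted p = 0.0288) with 2.33% of genes.

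M2 macrophages did not share this order. Cd74 had 5434 and 4546 CPM with vehicle and 6029 and 4659 CPM with digoxin, which gave 0.09 on the log2 scale (SE 0.17, adjusted p = 1.00 by limma). No member took the same side in both digoxin mice, against 11.7% of genes lower and 15% higher. The groups overlapped for each member, and without vehicle mouse 2 the difference of Cd74 was -0.04. limma called none of the 7 and 0% of genes at an adjusted p under 0.05, no member passed unadjusted where 286 genes did, and neither edgeR (0% of genes) nor DESeq2 (0.0717%) called a member.

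The difference between the digoxin effects in M2 and M1, tested with the mouse as a block, was positive for all 7 members. Of all 11932 genes, 40.6% lay below 0. The difference was 0.64 for Cd74 (SE 0.22, limma adjusted p = 0.820) and 0.81 for H2-Eb1 (SE 0.26, adjusted p = 0.820). None was called, as was no gene (0%) of 11932, although 6 members and 706 genes had an unadjusted p under 0.05. One vehicle mouse decided this value. Vehicle mouse 2 had the highest Cd74 in M1 and the lowest in M2. Its M1 and M2 cells numbered 712 and 1511, against 1095 and 948 in vehicle mouse 1. The counts were 1307 and 1136 in digoxin mouse 1 and 1166 and 1191 in digoxin mouse 2. Whether this split of the macrophages had a part in the difference was not tested. Without vehicle mouse 1 all 7 members were called, with H2-Eb1 at 1.28 (adjusted p = 1.16e-05), as were 1.85% of genes, and without vehicle mouse 2 none was, with H2-Eb1 at 0.34 (adjusted p = 0.457) and Cd74 at 0.26.

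**Figure D3:**
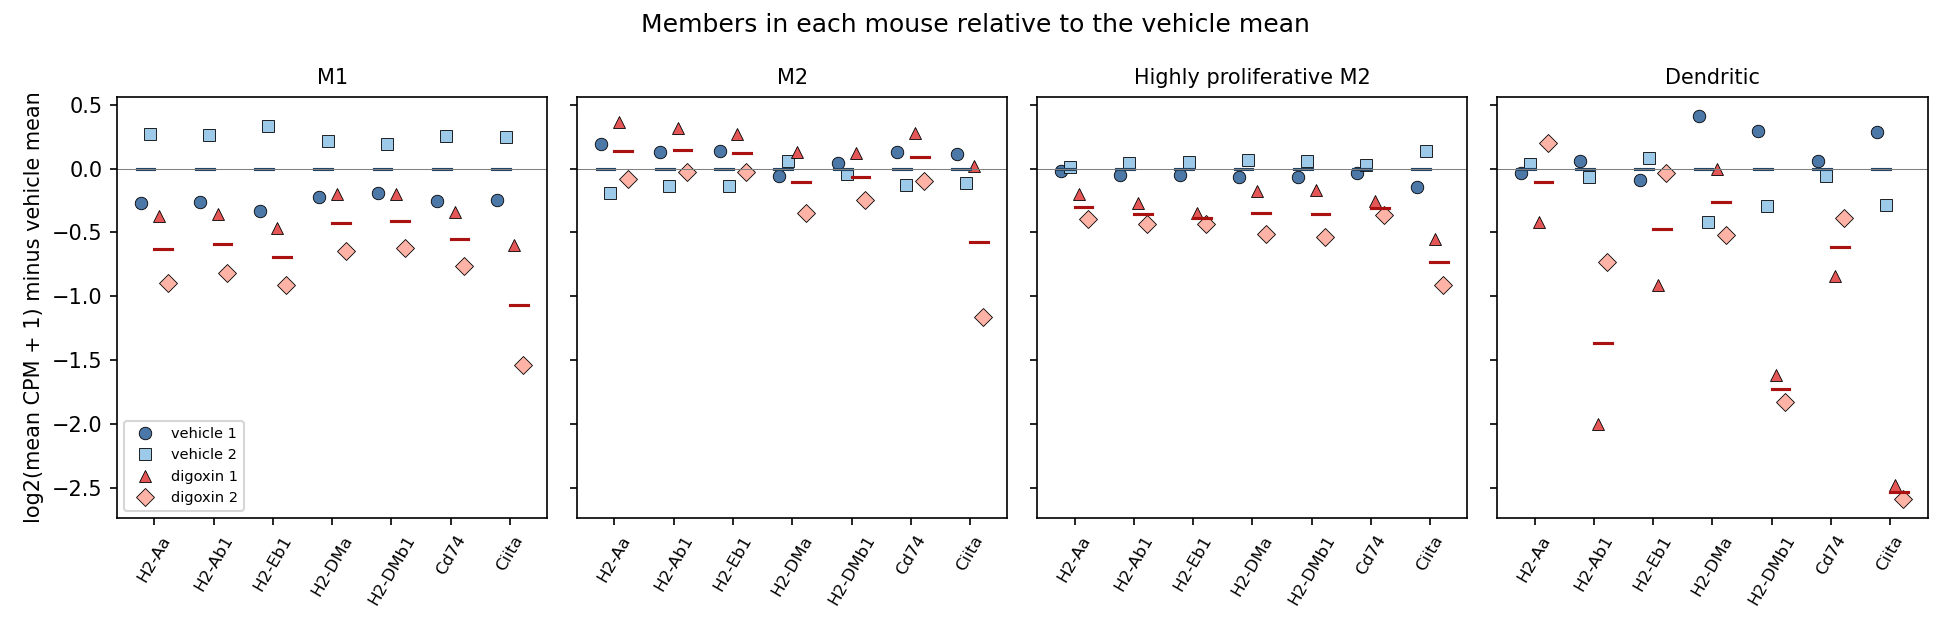
Log2(mean CPM + 1) of each member in each mouse minus the mean of the 2 vehicle mice, in 4 populations; bars mark group means, blue for vehicle (at 0) and red for digoxin. In Highly proliferative M2 macrophages both digoxin mice lie below both vehicle mice for all 7 members, in M1 for 6, in Dendritic cells for 4 and in M2 for none.

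Ciita was lower relative to Cd74 in several populations. Per 100 Cd74 UMIs, M1 macrophages held 1.11 and 1.11 Ciita UMIs with vehicle and 0.959 and 0.641 with digoxin. In M2 the values were 0.672 and 0.691 against 0.583 and 0.293, and in Highly proliferative M2 they were 0.677 and 0.788 against 0.550 and 0.446. All 3 macrophage sub-clusters thus had both digoxin mice below both vehicle mice, and digoxin mouse 2 was the lower of the pair in each. Genes whose ratio to Cd74 took that side made up 1.17% in M1, 9.48% in M2 and 1.33% in Highly proliferative M2, of 12221 to 13379 genes with at least 20 UMIs. In M1 the ratios of H2-Aa, H2-Ab1 and H2-Eb1 were lower in both digoxin mice too, by less: H2-Aa held 34.6 and 35.3 per 100 Cd74 with vehicle and 34.2 and 32.1 with digoxin. Those of H2-DMa and H2-DMb1 were higher in both, as were 50.7% of genes. In Highly proliferative M2 the ratios of H2-Ab1 and H2-Eb1 were lower, and in M2 that of H2-DMb1 was lower and that of H2-Ab1 higher (3.71% of genes). Cd74, the divisor, was itself lower with digoxin in M1 and Highly proliferative M2, which raises the ratio of most genes there. In 7 of 11 populations the ratio of Ciita was lower in both digoxin mice, in 1 higher and in 3 overlapping. Besides the macrophages these were Dendritic, Epithelial, Microglia and NK, where 3.8%, 3.57%, 24.5% and 2.09% of genes took that side. Few UMIs stand behind them: in the order vehicle 1, vehicle 2, digoxin 1, digoxin 2, Ciita had 18, 3, 11 and 0 in Epithelial and 32, 6, 5 and 6 in NK cells. With 2 mice against 2 the smallest p of an exact permutation test is 0.333, so no single ratio can pass. In all macrophages together, Ciita was at 82.0 and 79.7 CPM with vehicle and 68.4 and 32.8 CPM with digoxin, or -0.76 on the log2 scale (SE 0.31, adjusted p = 1.00 by limma). Digoxin mouse 2 carried most of it: the difference was -0.24 without that mouse and -1.28 without digoxin mouse 1, and neither fit called a member. Ciita and H2-Eb1 were the 2 members with each digoxin mouse lower in macrophages, as were 17.3% of genes, and Cd74 differed by -0.21 (SE 0.17). Ciita alone passed an unadjusted p under 0.05, as did 555 genes. limma and edgeR called 0 genes in all macrophages, and DESeq2 called 0.146% of genes and no member.

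**Figure D4:**
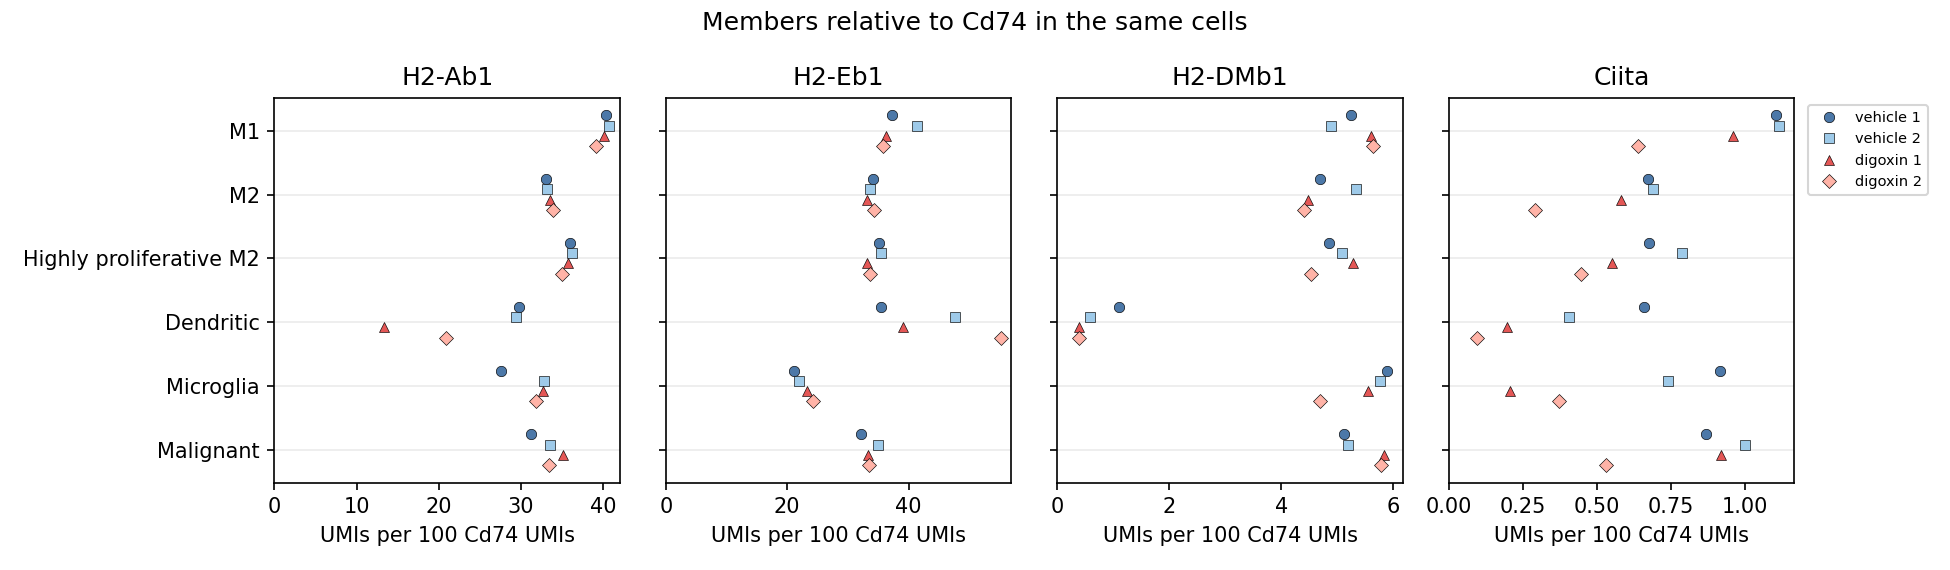
UMIs of 4 members per 100 Cd74 UMIs, 1 point per mouse, in 6 populations. Ciita lies lower in both digoxin mice in every population drawn other than the malignant cells, and the Dendritic points stand apart for H2-DMb1, at 0.384 to 1.1 against 4.41 to 5.64 in the macrophage sub-clusters.

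The cells named Dendritic were few, 18, 21, 14 and 10 in the order vehicle 1, vehicle 2, digoxin 1, digoxin 2. Their dendritic markers were led by Ccr7, the receptor of migrating dendritic cells, at 2436 to 3627 CPM, with Flt3 at 147 to 280 CPM and Cd209a at 0 in each mouse. H2-Ab1 was at 3313 and 3038 CPM with vehicle and at 791 and 1912 CPM with digoxin. Its partner H2-Aa was at 3439 and 3603 CPM against 2637 and 4049 CPM. The groups did not overlap for H2-Ab1 and did for H2-Aa, although the 2 genes encode the chains of 1 molecule. Per 100 Cd74 UMIs, H2-Ab1 held 29.7 and 29.5 with vehicle and 13.3 and 20.9 with digoxin. The log2 difference was -1.37 for H2-Ab1 (SE 0.31, limma adjusted p = 0.204) and -0.11 for H2-Aa (SE 0.20, adjusted p = 0.986). limma called no member and 0.13% of 3079 genes. Unadjusted, 4 members and 196 genes passed 0.05. H2-Ab1 was called by edgeR (-1.44, adjusted p = 0.0309), which called 0.422% of genes, and by DESeq2 (-1.43, adjusted p = 2.01e-05), which also called 0.422%. The replicate block fit of limma, with the mouse number as a term, called H2-Ab1 too (adjusted p = 0.00126) and 0.617% of genes.

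In the Dendritic cells 4 members were lower in both digoxin mice (H2-Ab1, H2-DMb1, Cd74 and Ciita), against 17.3% of genes. H2-DMb1 was at 99.9 and 66.0 CPM with vehicle and 25.8 and 22.2 CPM with digoxin, and Ciita at 69.7 and 46.6 CPM against 9.42 and 8.65 CPM. The latter rests on 24, 11, 3 and 1 UMIs. Macrophage markers moved the same way: their sum was 1457 and 1634 CPM with vehicle and 139 and 670.5 CPM with digoxin, and no marker of the 8 was at 0 in all mice. Among the Dendritic cells with a UMI of at most 2 of the 8 macrophage markers (14, 18, 13 and 8 cells), H2-Ab1 was at 2969 and 1846 CPM with vehicle and 852 and 2257 CPM with digoxin. There the groups overlapped for H2-Ab1. They did so for Cd74 too, at 10292 and 8417 CPM with vehicle and 6470 and 9697 CPM with digoxin. H2-DMb1 was at 44.9 and 30.4 CPM against 27.7 and 19.5 CPM in those cells, and Ciita at 61.6 and 17.3 CPM against 10.1 and 10.8 CPM, still without overlap. Leaving out digoxin mouse 2, limma called H2-Ab1, H2-Eb1 and Cd74 and 0.812% of genes, and with vehicle mouse 2 left out it called none, with H2-Ab1 at -1.43. The size for H2-Ab1 hung on the digoxin mice: it was -0.73 without digoxin mouse 1, where limma called no member and 1.49% of genes, and -2.00 without digoxin mouse 2.

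The cluster deposited as Microglia did not carry the defining markers of that name. Tmem119 was at 0 to 2.75 CPM and P2ry12 at 14.5 to 31.9 CPM, while Siglech and Bst2, markers of plasmacytoid dendritic cells, were at 2178 to 2592 CPM and 2881 to 3284 CPM. The cluster is called here by its deposited name. It held 55, 38, 58 and 31 cells. Its Cd74 was at 5146 and 5398 CPM with vehicle and 5507 and 5773 CPM with digoxin, and its Ciita at 40.9 and 35.8 CPM against 12.6 and 18.6 CPM. Cd74 was thus slightly higher and Ciita lower in both digoxin mice, where 16.7% of 5818 genes were higher and 16.2% lower. Without the cells marked by Scrublet, which held 0% to 18.3% of the member UMIs, the groups overlapped for Cd74, at 4966 and 5398 CPM against 5322 and 5854 CPM, and for H2-Aa and H2-Eb1, which had also been higher in both digoxin mice. Ciita was still lower in both, as were 15.9% of genes. Cells with 3 or more macrophage markers made up 23.6% and 21.1% of the cluster with vehicle and 25.9% and 48.4% with digoxin. In the other cells the groups overlapped for Cd74, at 5238 and 5326 CPM against 4828 and 5884 CPM, and Ciita was at 32.1 and 45.4 CPM against 6.51 and 27.5 CPM. The Ciita values rest on 28, 14, 8 and 7 UMIs. They differed by -1.27 on the log2 scale (SE 0.51), and limma gave an adjusted p of 0.976. H2-Eb1 per 100 Cd74 was 21.0 to 24.3 in this cluster, below the 33.1 to 41.3 of the macrophage sub-clusters in each mouse, and H2-DMa was 7.93 to 9.85 against 4.27 to 6.85. limma and edgeR called 0 genes in this cluster, DESeq2 called 0.0172% of genes, and none called a member. Unadjusted, Ciita and 278 genes passed 0.05.

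With all malignant cells counted, no member separated the groups. Cd74 was at 157 and 111 CPM with vehicle and 151 and 95.6 CPM with digoxin, and H2-Aa at 51.0 and 37.2 CPM against 52.8 and 31.7 CPM. The 2 groups overlapped for each of the 7 members, where 16.5% of 17138 genes were lower and 12.8% higher in both digoxin mice. The log2 difference of Cd74 was -0.14 (SE 0.25, limma adjusted p = 1.00), and -0.38 without vehicle mouse 2. limma called no member and 0% of genes, none of the members had an unadjusted p under 0.05 where 585 genes did, and edgeR (0% of genes) and DESeq2 (0.263%) called 0 members. Over all non-malignant cells limma and edgeR called 0% of genes, DESeq2 0.202% and limma with the replicate block 0.0134%, none of them a member, while 581 genes and no member passed an unadjusted p of 0.05 in limma. H2-Eb1 and Ciita were the members with each digoxin mouse lower there, as were 20.6% of genes. The difference between the digoxin effects in non-malignant and malignant cells was called for no member and for 0% of 14445 genes (limma, lowest adjusted p of a member 0.970), with 1 member, Ciita, and 576 genes at an unadjusted p under 0.05.

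The MHC class II RNA of the malignant cells sat in few of them. The 1% of cells with the highest summed CPM of the 7 members held much of the CPM summed over cells. Their share of that sum was 41.2%, 58.7%, 48.3% and 53.9% in the order vehicle 1, vehicle 2, digoxin 1, digoxin 2. Cells with a UMI of 3 or more of the 8 macrophage markers made up 51.4% to 61.2% of malignant cells and held 93.3% to 94.4% of the member UMIs. Those cells were also deeper, with a median of 60024 to 72034 UMIs against 36589 to 45458 in the rest. Scrublet, which marks barcodes that resemble 2 cells, marked 5.51% to 8.36% of malignant cells, and these held 66.3% to 81.4% of the member UMIs. Per 100 Cd74, malignant cells held 31.9 to 34.7 of H2-Aa and 5.12 to 5.83 of H2-DMb1, beside the 31.6 to 35.3 and 4.41 to 5.64 of the macrophage sub-clusters. Without the marked cells, Cd74 was at 37.6 and 22.5 CPM with vehicle and 47.6 and 32.3 CPM with digoxin. The log2 difference of Cd74 then turned to 0.42, and the groups still overlapped for Cd74. They no longer overlapped for H2-Ab1, at 14.2 and 10.5 CPM with vehicle and 21.5 and 14.8 CPM with digoxin, or for H2-Eb1, at 13.3 and 10.2 CPM against 18.7 and 13.6 CPM. Both were higher with digoxin, as were 14% of genes without the marked cells, and limma called neither (adjusted p = 0.993 each). Over all malignant cells, marked ones included, macrophage markers summed to 510 and 548 CPM with vehicle and 396 and 418 CPM with digoxin, and their part was not tested.

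Thinned to 3000 UMIs per cell, 11.1%, 7.30%, 9.89% and 8.06% of malignant cells kept a Cd74 UMI in the same order, and unthinned the shares were 63.1%, 48.7%, 62.3% and 56.8%. No cell had to be left out. NK cells, which are not known to express Cd74 strongly, gave 15.4%, 14.0%, 12.8% and 18.9% thinned and 34.7% to 44.0% unthinned. Median UMIs per cell were 46799 to 57658 in malignant and 10992 to 12449 in NK cells. The thinned malignant shares lay below the NK shares. Between 11.1% and 29.1% of the NK cells had a UMI of 3 or more macrophage markers, so the NK share is not that of cells without such RNA, and whether the malignant share exceeds a background was not tested. They averaged 9.23% ± 2.72 with vehicle and 8.97% ± 1.29 with digoxin (SD, n = 2 each, two-sided exact permutation test, p = 1, smallest possible p 0.333).

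Lymphocyte clusters carried these genes in the same uneven way. In the T cells deposited as Treg, Cd74 was at 5852, 4974, 7247 and 4029 CPM in the order vehicle 1, vehicle 2, digoxin 1, digoxin 2, a range that overlapped that of M2 macrophages. Cells with 3 or more macrophage markers were 33.8% to 55.0% of them and held 90% to 99.5% of the member UMIs. Over all Treg cells, macrophage markers summed to 2907 to 4031 CPM and T cell markers to 1850 to 2720 CPM. In the Treg cells with fewer macrophage markers, Cd74 was at 1268, 158, 1616 and 513 CPM. In all T cells, no member took the same side in both digoxin mice, where 19% of 8930 genes were lower and 14.3% higher. limma, edgeR and DESeq2 called 0 genes in T cells, and limma with the replicate block called 0.638% of genes. No fit of all 4 mice called a member there (382 genes and no member at an unadjusted p under 0.05 in limma). The direction in T cells hung on single mice: Cd74 was called at -0.42 without vehicle mouse 1 (adjusted p = 3.12e-05), in a fit that called 2.22% of genes, and at 0.45 without vehicle mouse 2 (adjusted p = 2.99e-05), in one that called 0.929%. The NK cells with 3 or more macrophage markers held 73.1% to 93.0% of the member UMIs. H2-Aa, H2-Ab1, H2-Eb1 and H2-DMb1 were higher in both digoxin mice in NK cells, as were 19.1% of 9147 genes, and without the cells marked by Scrublet the groups overlapped for H2-Aa, at 52.2 and 62.3 CPM against 34.2 and 65.8 CPM, and turned for H2-Ab1, at 56.7 and 75.1 CPM against 49.4 and 41.6 CPM, and for H2-Eb1, at 69.0 and 63.7 CPM against 35.3 and 51.7 CPM. Without those cells H2-DMb1 overlapped too, Ciita was lower in both digoxin mice, and 17.3% of genes were. No fit of all 4 mice called a member in NK cells, where 4 members and 574 genes passed unadjusted in limma. Of all NK genes limma called 0.0765%, edgeR 0.186%, DESeq2 0.0765% and limma with the replicate block 0.251%. Cd74 differed by 0.62 and H2-Aa by 0.56 with all mice, and by 0.07 and 0.23 without vehicle mouse 2, where limma called no member. Without vehicle mouse 1 limma called H2-Aa, H2-Eb1 and Cd74 (1.17% of genes), and without digoxin mouse 1 Cd74 (0.568%). The part of macrophage RNA in these values was not tested.

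**Figure D5:**
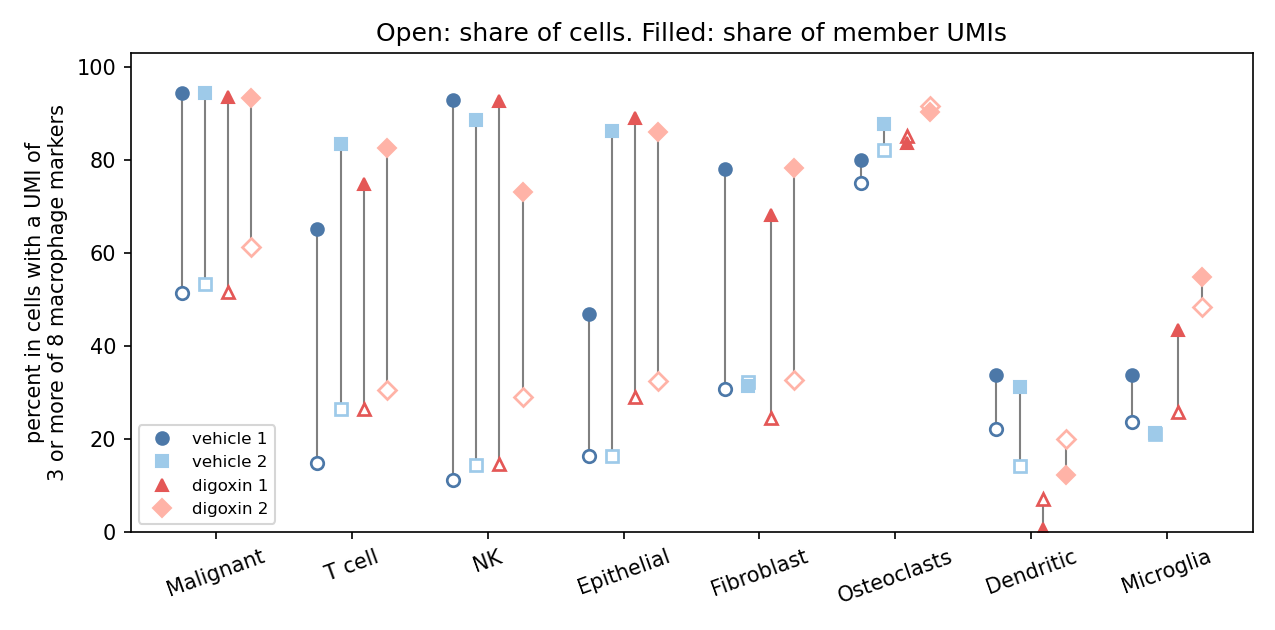
Percent of the cells (open symbols) and of the UMIs of the 7 members (filled symbols) found in cells with a UMI of at least 3 of 8 macrophage markers, by population and mouse. In malignant cells 51.4% to 61.2% of the cells hold 93.3% to 94.4% of the UMIs, while in Dendritic and Microglia cells most of the UMIs lie outside such cells in 7 of 8 values.

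Among stromal clusters the second vehicle mouse set the result in fibroblasts. Cd74 was at 523 and 28.7 CPM with vehicle and 428 and 487 CPM with digoxin, and vehicle mouse 2 was the lowest in 6 of 6 tested members. Its fibroblasts, 31 cells against 45 to 78, also had the lowest sum of macrophage markers, 128 CPM against 387 to 625 CPM. The log2 difference of Cd74 was 1.87 (SE 1.05, limma adjusted p = 0.999). Without vehicle mouse 2 it was -0.20, and without vehicle mouse 1 all 6 tested members were called, Cd74 at 3.94, as were 4.46% of genes. For H2-Ab1, H2-DMa and H2-DMb1 both digoxin mice were higher, against 10.1% of 9292 genes. Without the marked cells the groups overlapped for H2-DMa, at 29.7 and 2.36 CPM against 31.4 and 22.5 CPM, while H2-Ab1 and H2-DMb1 stayed higher in both, as did 9.47% of genes. Ciita, with 14, 0, 6 and 6 UMIs in fibroblasts, did not pass the filter on low counts; it was higher in both digoxin mice with all cells and overlapped without the marked ones. limma called no member and 0% of genes in fibroblasts, edgeR likewise 0 and DESeq2 0.0108% with no member, and H2-DMb1 and 276 genes passed unadjusted. In the cluster named Epithelial, H2-Eb1 was at 77.4 and 71.7 CPM with vehicle and 148 and 109 CPM with digoxin (log2 difference 0.76, SE 0.18, limma adjusted p = 0.177). H2-Aa, H2-Ab1 and H2-Eb1 were higher in both digoxin mice there, as were 17.8% of 10272 genes, and limma called 0.467% of genes, edgeR 0%, DESeq2 0.146% and limma with the replicate block 0.827%, in no case a member. The same 3 genes passed an unadjusted p of 0.05, as did 593 genes in all. Cells marked by Scrublet held 34.4% to 65.6% of the member UMIs in this cluster. Without them the groups overlapped for H2-Ab1, at 73.8 and 23.5 CPM against 96.9 and 71.4 CPM. H2-Aa, at 47.9 CPM or less with vehicle against 96.3 and 61.9 CPM with digoxin, then differed by 1.29 in place of 0.73, and H2-Aa and H2-Eb1 were higher in both digoxin mice with 17.8% of genes. Markers of other cells moved with the groups in this cluster. Macrophage markers summed to 345 and 698 CPM with vehicle and 891 and 1072 CPM with digoxin, and mast cell markers (Cma1, Cpa3, Kit, Mcpt4 and Tpsb2) to 59.4 and 260 CPM against 4709 and 5304 CPM. Neither sum overlapped between the groups, and their part in the differences was not tested. Without vehicle mouse 2, H2-Aa (0.89, adjusted p = 0.00762) and H2-Eb1 (0.71, adjusted p = 0.0279) were called in Epithelial (2.34% of genes), where Cd74 differed by 0.08, against 0.53 with all mice. Without vehicle mouse 1, H2-Ab1, H2-Eb1 and Cd74 were called (3.35% of genes). Osteoclasts showed no member on 1 side: Cd74 was at 1599 and 1402 CPM against 1839 and 467 CPM, with 15.8% of genes lower and 21.6% higher in both digoxin mice. limma called 0.0128% of genes there, edgeR 0%, DESeq2 0.0256% and limma with the replicate block 0.0384%, none a member, and no member passed unadjusted. The log2 difference of Cd74 was -0.69 (SE 0.46). It hung on the digoxin mice: without digoxin mouse 1, H2-Aa, H2-Eb1 and Cd74 were called, Cd74 at -1.68, with 0.0641% of genes, and without digoxin mouse 2 Cd74 turned to 0.30 and no member was called.

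The other genes of the pathway, 32 of which were in both tables, were tested in the same fits. limma called none of the 31 tested in M1, and 0% of all genes there. Of the 31, 20 lay below 0 and 11 above, with a median log2 difference of -0.13, while 55.1% of all 12182 genes lay below 0. At an unadjusted p under 0.05 there were 7 of the 31 and 942 genes in all. The lowest in M1 was H2-Oa, the alpha chain of the inhibitor of the peptide editor, at -1.23 (SE 0.29, adjusted p = 0.474). Its levels were 13.9 and 26.9 CPM with vehicle and 8.39 and 7.04 CPM with digoxin. Its beta chain H2-Ob was at -0.94 (SE 0.22, adjusted p = 0.471), from 8.68 and 12.7 CPM to 5.47 and 4.55 CPM. The highest was Ctsl, the lysosomal protease cathepsin L, at 0.72 (SE 0.16, adjusted p = 0.471). In Highly proliferative M2, where all 7 members lay below 0, 13 of 30 pathway genes and 44% of all genes did. The median of the pathway genes was 0.01, and limma called none of them and 0% of all genes. In the Dendritic cells 16 of 22 lay below 0, against 50% of all genes. The lowest of the 22 was the protease Ctsd at -1.71 (SE 0.45, limma adjusted p = 0.341). Chosen after their values were seen, H2-Ob above and the next genes show where the pathway lay. By level, H2-Oa and H2-Ob were highest in B cells, at 122 and 158 CPM (means of 4 mice with 4 to 18 cells each), and the M2 macrophages had 0.165 and 1.70 CPM. H2-Oa was at 47.7 CPM in Dendritic cells and 47.6 CPM in the cluster named Microglia. Ifng, whose protein induces Ciita, was at 56.4 CPM in T cells and 49.0 CPM in NK cells and at most 6.20 CPM in the other tested clusters. Rfx5, a subunit of the complex that holds Ciita on the X box, had means of 3.17 to 16.4 CPM across the 13 tested populations, with 10.5 CPM in malignant cells.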

How the data were processed

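Single cells of 4 tumors were captured with the Chromium 3' kit of 10x Genomics, per the labels' protocols, and the submitters' processing notes name Cell Ranger 3.0.2, Seurat 3.0.2 and mm10, with no role or order. The authors deposited natural log values, ln(1 + UMIs scaled to 10000 per cell), with the UMI count of each cell and its cluster labels, per the file headers. From these, whole UMIs were recovered for 100% of values (tolerance 0.01), and the UMIs of every cell summed to its deposited total count. How the authors separated malignant from non-malignant cells is not given in the sources used here. The cell names of vehicle mouse 2 read veh3, while the deposited tables place them with the second vehicle sample.

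For each mouse and population, the mean CPM of its cells was taken, and log2(mean CPM + 1) was compared with limma 3.58.1 (R 4.3.3) over all genes kept by filterByExpr, with Benjamini-Hochberg adjustment and a threshold of 0.05. Populations needed 10 cells in every mouse, and the T cell sub-clusters were left untested whatever their size. This left 13 tested populations. As alternatives, edgeR 4.0.16 and DESeq2 1.42.0 were run on summed UMIs, beside a pseudocount of 5, no filter, CPM of summed UMIs, a replicate block, removal of marked doublets and leaving out each mouse. The limma and edgeR fits were also run on simulated counts with large changes and a set spread. That run does not show how they perform at smaller changes or at the spread between these mice. Scrublet (scanpy 1.11.5) marked 1377 of 31611 cells (4.36%), which were kept unless stated. For shares of cells with a UMI, cells were thinned to 3000 UMIs. Python 3.11.15, numpy 2.4.6, pandas 2.3.3 and scipy 1.17.1 were used for the rest.

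Every member was named in every population where its values bear on a result. Pathway genes were named where they passed the test or were the lowest or highest of their list, apart from H2-Ob, Ifng and Rfx5, which were named after their values were seen, and like genes by correlation with the mean of the members. Members and lists were chosen with earlier results of these data known. The B cell and Neutrophil clusters and the T cell sub-clusters were described and not tested.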

Additional observations from a re-analysis of the deposited data

Results flagged for a closer look

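Each member had both digoxin mice below both vehicle mice in some of 11 populations and above them in others. H2-Aa was lower in 2 (M1 and Highly proliferative M2) and higher in 3 (Epithelial, Microglia and NK). H2-Ab1 was lower in 3 (the same macrophages and Dendritic) and higher in 3 (Epithelial, Fibroblast and NK). For H2-Eb1 the counts were 2 lower and 3 higher, in the populations named for H2-Aa. H2-DMa was lower in 1 (Highly proliferative M2) and higher in 1 (Fibroblast). H2-DMb1 was lower in 3 (Dendritic, M1 and Highly proliferative M2) and higher in 2 (Fibroblast and NK). Cd74 was lower in the same 3 and higher in 1 (Microglia). Ciita was lower in 4 (those 3 and Microglia) and higher in 1 (Fibroblast). Over the 11 populations, 11.7% to 24% of all tested genes were lower in both digoxin mice and 10.1% to 21.6% higher, and the counts of each member are to be read against these shares. Without the cells marked by Scrublet, the higher side was lost for H2-Aa, H2-Eb1 and Cd74 in Microglia, H2-Aa and H2-DMb1 in NK, H2-Ab1 in Epithelial, and H2-DMa and Ciita in Fibroblast, and it turned to lower for H2-Ab1 and H2-Eb1 in NK. Cd74, H2-DMa and Ciita were then higher in none of the 11. H2-Ab1 and H2-Eb1 became higher in malignant cells and Ciita lower in NK. The difference between these populations was not tested; of pairs of populations, only M2 against M1 and non-malignant against malignant cells were, and neither test called a member.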

How the results depend on the processing

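The number of members called by limma, 0 in each population with all mice, ranged over the 4 fits without 1 mouse from 0 to 3 in Dendritic, Epithelial, NK and Osteoclasts, 0 to 6 in Fibroblast, 0 to 4 in T cell, 0 to 1 in M1, 0 to 2 in Highly proliferative M2 and 0 to 7 for M2 against M1. The fits without 1 mouse that called a member called 0.0641% to 4.46% of all genes. In these fits the lone mouse of a group is assumed to vary like the other group. The log2 difference ranged from -0.42 to 0.20 for H2-Aa and -0.68 to 0.15 for H2-DMa in Dendritic, from -0.093 to 0.28 for Cd74 and -1.17 to 0.022 for Ciita in M2, and for Cd74 from -0.42 to 0.0079 in Macrophage, -0.46 to 0.19 in Malignant and -0.20 to 3.94 in Fibroblast. The share of malignant cells with a Cd74 UMI differed by -2.18 to 1.67 percentage points, and the macrophage share of member UMIs by -0.364 to 0.451. Without marked doublets Cd74 in malignant cells turned to 0.42 and its share to 0.536 points, and without thinning the share turned to 3.66 points. The cause was not tested.

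edgeR and DESeq2 each called 1 member in Dendritic, and DESeq2 called 2 in Highly proliferative M2. Over all genes DESeq2 called 45 in malignant cells and 42 in M1 where limma called 0, and in Dendritic 13 where limma called 4.

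The replicate block called 1 member in Dendritic (H2-Ab1) and changed no other call of a member. It called 57 genes in T cell where the fit without it called 0, 85 against 48 in Epithelial, 23 against 7 in NK and 19 against 4 in Dendritic. Nothing in the labels pairs the mice, and deviations of same-numbered mice correlated at -0.363 in malignant cells, -0.155 in Microglia and -0.0793 to 0.0608 in the others. With the numbers crossed, an alternative chosen after seeing the data, 0 genes were called in malignant cells and 40 in Microglia, with 0 members in both.

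Depth limits Ciita most: it rests on 1 to 24 UMIs per mouse in Dendritic and 7 to 28 in Microglia. In Epithelial it rests on 0 to 18, in Fibroblast on 0 to 14, in NK on 5 to 32 and in Osteoclasts on 5 to 37.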

Other observations

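In T helper cells, described and not tested, Cd74 was at 978 and 797 CPM with vehicle and 1283 and 1455 CPM with digoxin. Th cells with 3 or more macrophage markers held 50.2% to 98.0% of the member UMIs, and in the other Th cells Cd74 was at 445 and 48.2 CPM against 160 and 112 CPM, which overlap. The Neutrophil cluster (5 to 34 cells per mouse) held Cd74 at 4848 to 10234 CPM and summed macrophage markers of 12064 to 17442 CPM. Vehicle mouse 2 gave 4 of the cells named B cell, with macrophage markers of 9204 CPM against 1562 CPM in vehicle mouse 1. The 30 cells named Unknown all came from vehicle mouse 2 and had Cd74 at 9.14 CPM.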
